A study of Mus musculus with 9 samples.

Results

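The 60 genes described here lost most of their RNA in mouse B cells treated to delete Yy1, the gene of the zinc finger transcription factor YY1. They were chosen by their own values in 6 RNA-seq libraries, as CPM, the counts of a gene scaled to a common library total. A gene needed a mock mean of at least 2 CPM, a tatcre mean of at most 25% of it, and no tatcre library as high as the lowest mock library. Of 48795 genes in the count tables, 11470 reached a mock mean of 2 CPM and 71 of these (0.619%) met all limits on values. Of the 71, 11 were left out by name, Yy1 itself and an immunoglobulin gene among them, which left 60. The loss is therefore how the genes were picked, and their mock and tatcre values are given as a description without a test.

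Follicular B cells, which make up most mature B cells in the spleen, had been taken by their CD23 from C57BL/6 yy1 f/f mice, in which both copies of Yy1 are flanked by sites for Cre recombinase. The series text tells of 3 mice whose spleens were divided between treatments. The 3 mock and the 3 tatcre libraries are from cells of this genotype, and the latter had received TAT-CRE, a form of the recombinase that enters cells. Both were then cultured with LPS+IL4, which activates B cells, for 72 hours (10% FBS) by the series text or 48 hours (20% FBS) by the sample text. The sample text also names TAT-CRE for the mock libraries, and the titles were followed here. Every tatcre library and, by the titles, no mock library met the recombinase, so exposure to it and loss of Yy1 cannot be told apart. The labels do not tie libraries to mice, so p-values measure only the spread between these libraries.

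YY1 binds a short DNA motif with the core GCCAT, often close to transcription starts, and can activate or repress genes depending on context. It also helps to bring enhancers and promoters together. In B cells it is needed at several stages, among them early development and the germinal centre reaction.

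Yy1 had 2655, 3018 and 2542 counts in mock 1 to 3 and 24, 36 and 50 in tatcre 1 to 3, so 1.51% of its mock mean of 103 CPM was left. The libraries held 22729187 to 28230727 gene counts, and 3 counts, taken as the limit that a count of 0 allows, equal 0.106 to 0.132 CPM. These limits and the intervals below cover counting error only. B cell markers summed to 3714 to 3943 CPM in mock and 3427 to 3600 CPM in tatcre libraries, and 3 of 6 were called lower. The follicular markers Fcer2a (CD23) and Cr2 summed to 1114 to 1134 and 765 to 798 CPM, and both were called lower; the part of such shifts in the values below was not tested. In such bulk samples, fewer cells of a type and less RNA per cell cannot be told apart.

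The name "nearly lost" held strictly for a few of the 60 genes and loosely for the rest. The median gene retained 17.9% of its mock mean. By the means, only Mgarp, Map7d3 and Celsr1 retained a smaller share than Yy1, and these 3 also had at most 3 counts in every tatcre library. The counting interval of Celsr1, given below, also covers larger shares than that of Yy1, so its rank is uncertain. For Map7d3 no such interval was computed. In 13 genes the mock mean was at least 10 times the tatcre mean, in 24 it was 5 to 10 times, and 23 genes retained more than 20%. All 60 passed the filter on low counts, and all 60 were called lower by edgeR's quasi-likelihood test, as were 16.3% of all 15546 genes tested. Since the rule used the same contrast, nothing is read from that count.

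**Figure D1:**
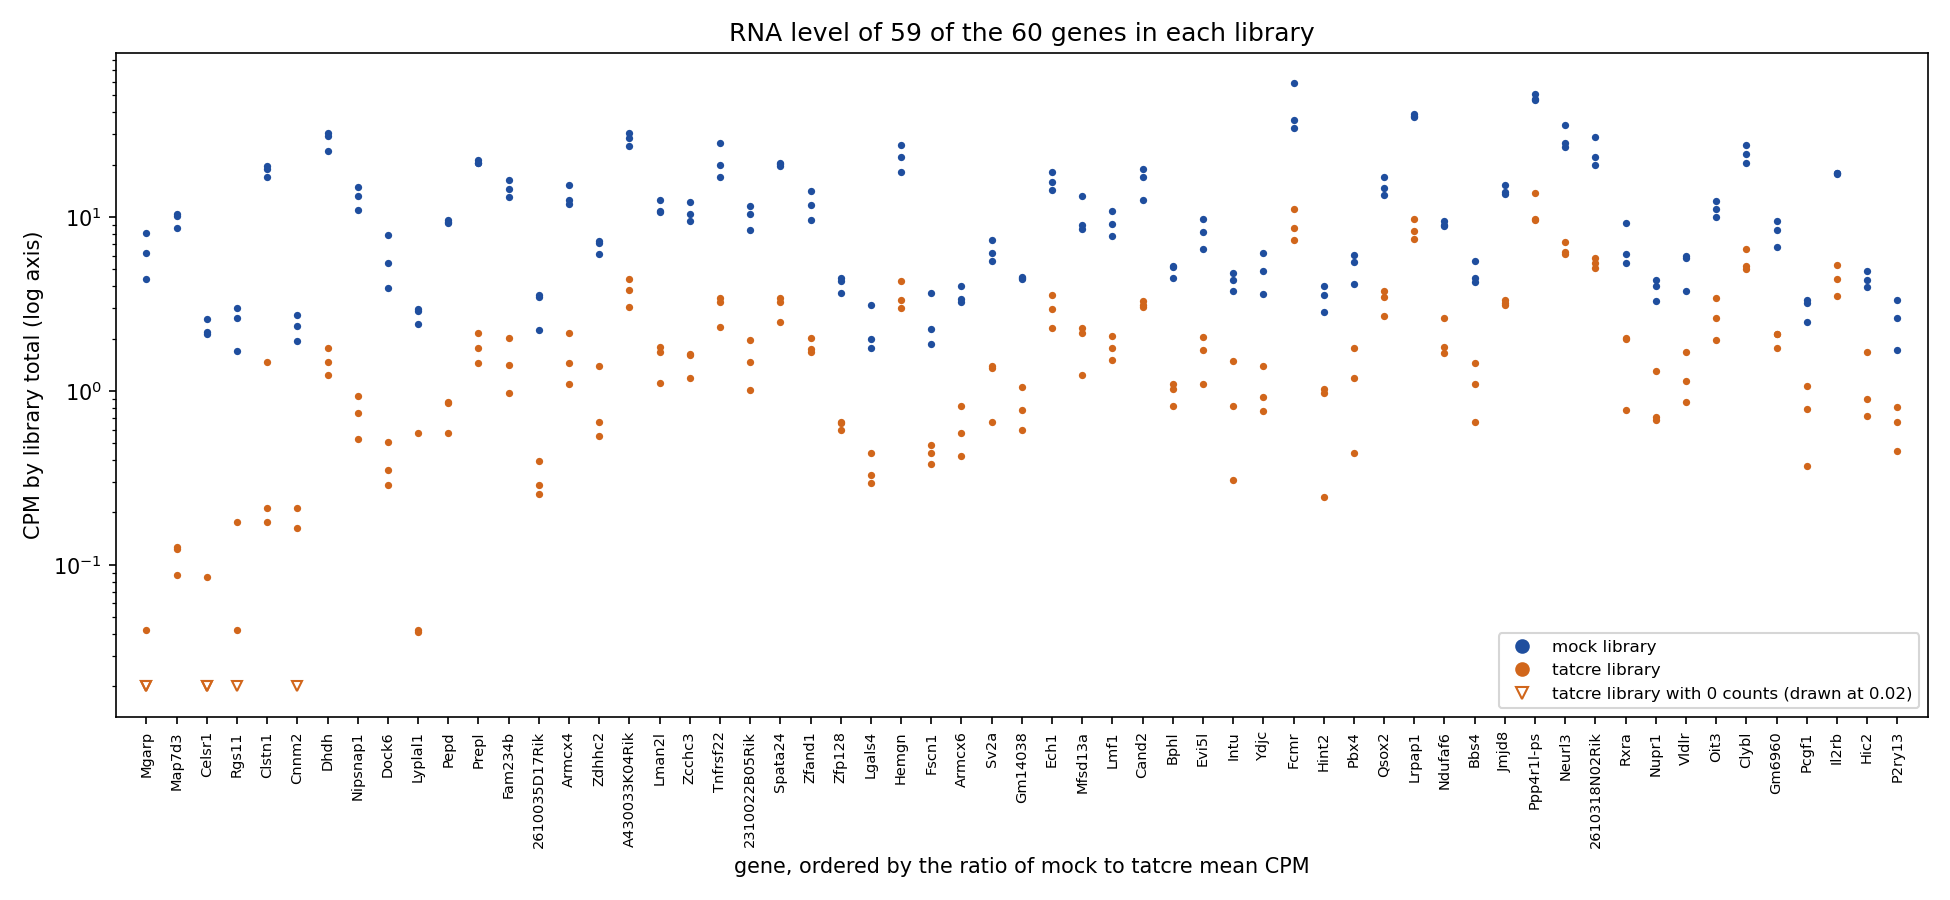
CPM by library total (log axis) of 59 of the 60 genes in the 3 mock and 3 tatcre libraries, 1 point per library, with genes ordered by the ratio of mock to tatcre mean. The gap between groups is widest at the left, for Mgarp, Map7d3 and Celsr1, and is about 4-fold at the right, for Hic2 and P2ry13.

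What the rule did not use is the DNA sequence at the starts of these genes. RefSeq promoters on build GRCm38.p6, which run from 250 bases before to 50 after a transcription start, were given for 43 of the 60 genes. The YY1 core GCCAT, which reads as ATGGC on the other strand, was present on either strand in 69.8% of the 43 (95% exact interval 53.9 to 82.8%), against 43.4% of tested genes outside the set and 44.1% of all other genes in the table. A longer form of the motif, ANATGGC, which contains the core and reads as GCCATNT on the other strand, was present in 17 of 43, or 39.5% (25 to 55.6%). It was present in 18.1% of tested genes outside the set and in 17.1% of all other genes.

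The longer form lay just after the start in 11 of these 17 promoters. There it began 5 to 44 bases into the transcribed sequence, counting the start as base 1, and in the other 6 genes every match began before the start. The first 50 bases, a window chosen after the positions had been seen, held it in 25.6% of the 43 genes (13.5 to 41.2%), in 6.8% of tested genes outside the set and in 4.34% of all other genes. In 9 of the 11 genes the motif read ANATGGC on the gene's own strand, and in Lyplal1 and Clstn1 on the opposite one. A match to these letters is a description and does not show that YY1 binds there. Every ANATGGC match on the gene's strand contains the letters ATG, and whether that is a start codon was not determined.

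The matches that begin in the first 50 bases are shown because they carry this difference in position. Each is printed 5′ to 3′ on the gene's strand, with the motif in capitals and up to 10 bases on each side within the RefSeq window. On GRCm38.p6 they are Hint2 at chr4:43656425-43656451 (minus strand), Lrpap1 at chr5:35105677-35105703 (minus strand), Clstn1 at chr4:149586464-149586490 (plus strand), Intu at chr3:40540775-40540801 (plus strand). Those of the next genes by position are Map7d3 at chrX:56822289-56822315 (minus strand), Evi5l at chr8:4166578-4166604 (plus strand), Ech1 at chr7:28825349-28825375 (plus strand), Pepd at chr7:34912426-34912452 (plus strand). The matches furthest from the start are Clybl at chr14:122181714-122181740 (plus strand), Lman2l at chr1:36445222-36445245 (minus strand), Lyplal1 at chr1:186117261-186117277 (minus strand).

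Hint2: actctcaggaAGATGGCtgctgctgtg
Lrpap1: cttcagaggaAGATGGCgcctcgaaga
Clstn1: gagcgccgccGCCATCTtagccgccgc
Intu: cgacctggcaAAATGGCggcgctgctg
Map7d3: tactctctgaAGATGGCggaccccact
Evi5l: tcagcgggtgAAATGGCagtggcggag
Ech1: ggagctccagAAATGGCtaccgcgatg
Pepd: cgccgagtgaACATGGCgtccactgtg
Clybl: ccagtcgggaAGATGGCgttgtgcgtg
Lman2l: gcggtgggaaAGATGGCggcggct
Lyplal1: cgcgcgccttGCCATCT

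In Hint2, Lrpap1, Map7d3, Clybl and Lman2l the capitals read AGATGGC, in Intu, Evi5l and Ech1 AAATGGC, and in Pepd ACATGGC. Read on their opposite strand, the matches of Clstn1 and Lyplal1 are AGATGGC as well. The matches of Hic2, Prepl and Mfsd13a and both further ones of Ech1 begin before the start and are shown for comparison, with their first bases at positions -1, -53, -84, -50 and -119, where -1 is the base before the start; that of Hic2 spans the start. They are Hic2 at chr16:17233576-17233602 (plus strand), Ech1 at chr7:28825278-28825304 (plus strand), Prepl at chr17:85090311-85090337 (minus strand), Mfsd13a at chr19:46356786-46356812 (plus strand), Ech1 at chr7:28825209-28825235 (plus strand), and the lines for Ech1 give the nearer match first.

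Hic2: caagcttccaAGATGGCgcggagcggg
Ech1: cccttgaccaACATGGCgaacgttcgt
Prepl: gccataataaAGATGGCgaaatgcgct
Mfsd13a: cccattacaaACATGGCagcgacagcc
Ech1: cccttagtaaAGATGGCgaactaggtg

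Ech1 thus held 3 copies of the longer form, and Hemgn also held 3, all before its start. The remaining matches were those of Zcchc3 and P2ry13, at positions -113 and -200, and a further one of Prepl at position -243 from the more upstream of its listed starts. For the 11 genes with the longer form in the first 50 bases, the median ratio of mock to tatcre was 5.49. It was 5.74 for the other 32 genes with a promoter entry. The rule chose all of them by this same ratio, so nothing is read from how close the medians lie. The longer form was in the first 50 bases of Map7d3, Clstn1, Lyplal1 and Pepd, which had ratios of at least 10. Prepl, also with such a ratio, held it only before the start. Mgarp, Cnnm2, Nipsnap1, Dock6 and Fam234b reached this ratio too and had no longer form in the window.

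Against tested genes outside the set, the other promoter motifs differed less or in the opposite direction, while the GC box differed from all other genes by more than the YY1 core did. The ETS motif CCGGAAG, on the other strand read as CTTCCGG, was present in 4.65% of the 43 promoters (0.568 to 15.8%), against 20.5% of tested genes outside the set and 9.94% of all other genes. The GC box GGGCGG, with CCGCCC as its other strand, was present in 74.4% (58.8 to 86.5%), against 67.1% and 38.1%. The TATA box TATAAA, with TTTATA as its other strand, was present in 14% (5.3 to 27.9%), against 8.86% and 15.7%. Among the 17 genes with no promoter entry were Celsr1, Rgs11, Dhdh, Zdhhc2, Tnfrsf22, Spata24, Zfand1, Gm14038, Cand2, Ydjc, Ndufaf6, Ppp4r1l-ps, Oit3, Gm6960, Pcgf1 and Il2rb.

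**Figure D2:**
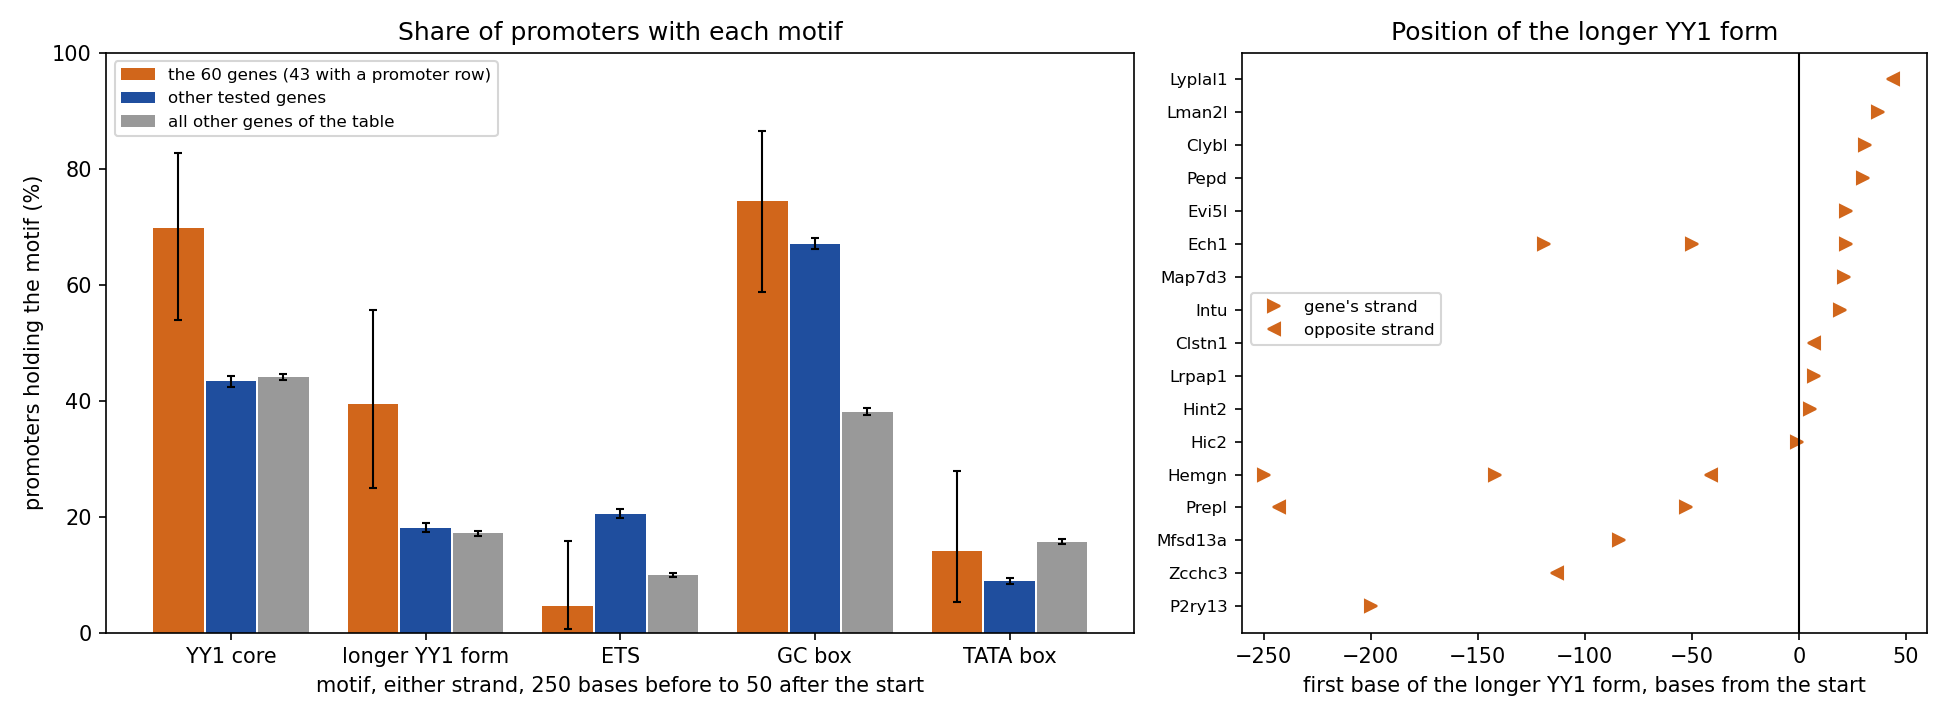
Left, the percentage of promoters that hold each of 5 motifs on either strand, for the 43 genes of the set and for the background genes, with 95% exact intervals. Right, the first base of each match to the longer YY1 form relative to the start, 1 row per gene; 11 of 17 genes have a match just after the start, and those of Hemgn, P2ry13 and Zcchc3 lie before it.

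The 8 mitochondrial and metabolic genes had a median ratio of mock to tatcre of 5.27 and included the gene with the largest ratio, Mgarp. This mitochondrial membrane protein gene at chr3:51388412-51396547 had 8.08, 4.43 and 6.20 CPM in mock 1 to 3, and only tatcre 1 had a count, a single one. Over the pooled libraries it had 495 counts in mock and 1 in tatcre, a ratio of 439 with a 95% exact counting interval of 78.4 to 17367. Nipsnap1, which codes for a mitochondrial matrix protein linked to the removal of damaged mitochondria, had 15, 13.2 and 10.9 CPM in mock and 0.934, 0.748 and 0.531 CPM in tatcre libraries (13 ± 2.03 and 0.738 ± 0.202, SD, n = 3). Every tatcre library of this gene lay more than 10-fold below every mock library.

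Dhdh, coding for a dihydrodiol dehydrogenase, was the highest of this class, with 29.2, 23.9 and 30.5 CPM in mock and 1.23, 1.76 and 1.47 CPM in tatcre libraries, and retained 5.34%. Clybl, a mitochondrial lyase that clears citramalyl-CoA, had 25.8, 20.3 and 23.0 CPM in mock and 6.58, 5.02 and 5.23 CPM in tatcre libraries, and retained 24.3%. Ech1, a dienoyl-CoA isomerase of fatty acid oxidation, had 16.0, 14.2 and 18.0 CPM in mock and 3.57, 2.29 and 2.94 CPM in tatcre libraries. The class thus ran from a gene almost without counts to one that kept close to 25%. Its other members, Ndufaf6 (assembly of respiratory complex I), Bphl (a mitochondrial serine hydrolase) and Hint2 (a mitochondrial histidine triad hydrolase), retained 19.8 to 22.3%.

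The 4 peptidase and hydrolase genes had the highest median ratio of the classes with more than 2 genes, 12. Prepl, a serine hydrolase resembling prolyl endopeptidases, had 20.4, 21.3 and 20.5 CPM in mock and 1.44, 2.16 and 1.76 CPM in tatcre libraries (20.7 ± 0.497 and 1.78 ± 0.357, SD, n = 3). Pepd, the prolidase that splits dipeptides ending in proline, had 9.24, 9.63 and 9.34 CPM in mock and 0.849, 0.572 and 0.858 CPM in tatcre libraries. Both genes had mock libraries close to each other and tatcre libraries more than 10-fold below them on average.

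Lyplal1, a serine hydrolase of the lysophospholipase family, had 2.43, 2.87 and 2.94 CPM in mock libraries, while its tatcre counts of 1, 13 and 1 put most of its remaining RNA in tatcre 2. Without that library its log2 ratio of tatcre to mock went from -3.65 to -6.04. Ydjc, a homologue of bacterial carbohydrate deacetylases, retained 20.9%. The loss of Prepl was not shared by the other tested genes in a hand-written list of prolyl oligopeptidases and similar peptidases. Of the 5 that were tested, Prep, Dpp4, Dpp7 and Dpp9 were not called and Dpp8 was called higher (log2 fold change 0.33, edgeR adjusted p = 0.00607).

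The armadillo repeat genes Armcx4 and Armcx6 lie 62.8 kb apart in a cluster of related genes on the X chromosome; several of their products sit on mitochondria. Armcx4 had 11.9, 15.2 and 12.6 CPM in mock and 1.44, 2.16 and 1.10 CPM in tatcre libraries. Armcx6 had 4, 3.37 and 3.26 CPM in mock and 0.424, 0.572 and 0.817 CPM in tatcre libraries. The losses of Armcx4 and Armcx6 were thus 8.45-fold and 5.86-fold. Among 8 tested relatives of the armadillo and GPRASP family 3 were called lower and 5 were not called. Armcx1 had a log2 fold change of -2.55 (edgeR adjusted p = 0.0304) at a low level, 0.742 and 0.122 CPM after TMM scaling. Armcx2 had -0.87 (edgeR adjusted p = 8.86e-05) and Bhlhb9 -0.55 (edgeR adjusted p = 0.000947). Armcx3, whose annotated interval overlaps that of Armcx6, was not called (11.1 and 9.5 CPM after TMM scaling, edgeR adjusted p = 0.305), and neither was Armcx5, at 24.0 and 24.6 CPM.

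Cell surface and adhesion genes were the most numerous class, 13 genes with a median ratio of 5.61. Celsr1, a cadherin of planar cell polarity at chr15:85898758-86034223, had 57, 73 and 54 counts in mock and 2, 0 and 0 in tatcre libraries, a pooled ratio of 81.6 (95% exact counting interval 22.3 to 678.5). Clstn1, the gene of calsyntenin 1, a cadherin-like transport protein, had 18.8, 19.7 and 16.9 CPM in mock and 0.212, 0.176 and 1.47 CPM in tatcre libraries. The third tatcre library held 36 of its 45 tatcre counts, and without it the log2 ratio went from -4.90 to -6.57. Cnnm2, a magnesium transport gene, had 2.73, 1.95 and 2.38 CPM in mock libraries and 5, 0 and 4 counts in tatcre libraries.

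Receptors of immune cells in this class retained 14.2 to 24.9%. Fcmr, the Fc receptor for IgM, had 58.8, 32.7 and 36.1 CPM in mock and 11.1, 7.35 and 8.66 CPM in tatcre libraries (42.5 ± 14.2 and 9.03 ± 1.89, SD, n = 3). Mock 1 was the high library here, and the lowest mock library still lay above all tatcre libraries. Il2rb, a receptor chain shared by IL-2 and IL-15, had 17.9, 17.8 and 18.0 CPM in mock and 5.31, 3.52 and 4.41 CPM in tatcre libraries. Its mock libraries nearly coincided, and its ratio of 4.05 was among the smallest.

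Tnfrsf22, a mouse decoy receptor for the death ligand TRAIL, had 19.8, 26.5 and 17.1 CPM in mock and 2.33, 3.43 and 3.23 CPM in tatcre libraries; reads may be split with its near copy Tnfrsf23. P2ry13, a receptor for ADP, had 1.72, 2.62 and 3.34 CPM in mock and 0.806, 0.660 and 0.450 CPM in tatcre libraries, so its groups came close to each other. Il2rb and P2ry13 are also made by T and NK cells or myeloid cells. NK cell markers summed to 0.242 to 0.411 CPM in mock and 0.245 to 0.528 CPM in tatcre libraries, with Klrd1 at 0 in all. T cell markers summed to 14.0 to 20.9 and 9.93 to 14.0 CPM; nearly all of this was Lck, 1 of the 2 tested markers was called lower, and each of the others had at most 0.849 CPM in any library. Macrophage and monocyte markers summed to 0.121 to 0.673 and 0.490 to 1.54 CPM, with Cd14 and Fcgr1 at 0 in all. Dendritic cell markers summed to 118 to 127 CPM in mock and 108 to 119 CPM in tatcre libraries, and 1 of the 2 tested was called lower. Most of this was Flt3 (means of 115 and 105 CPM), followed by Zbtb46 (7.94 and 8.30 CPM), while Itgax had at most 0.044 CPM in any library. The part of these markers' cells in the values of Il2rb and P2ry13 was not tested.

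The rest of the surface class retained 9.99 to 24.1%. Fam234b, a membrane protein gene, had 16.4, 13 and 14.5 CPM in mock and 0.976, 1.41 and 2 CPM in tatcre libraries. Lgals4, the gene of a galectin, had 1.98, 1.77 and 3.10 CPM in mock and 0.297, 0.440 and 0.327 CPM in tatcre libraries, the lowest mock mean of the set. Vldlr, the very low density lipoprotein receptor, had 5.98, 3.75 and 5.80 CPM in mock and 1.15, 1.67 and 0.858 CPM in tatcre libraries. Sv2a (a synaptic vesicle glycoprotein), Mfsd13a (a membrane protein of the major facilitator family) and Oit3 were the others.

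In the secretory pathway 7 genes had ratios from 4.44 to 7.85. Lrpap1, the chaperone that keeps receptors of the LDL receptor family, Vldlr included, from binding ligand too early, had 38.9, 38.1 and 37.6 CPM in mock and 9.72, 7.43 and 8.25 CPM in tatcre libraries (38.2 ± 0.61 and 8.47 ± 1.16, SD, n = 3). This receptor and its chaperone thus both met the rule, with 23.7 and 22.2% left. Lman2l, a lectin that carries glycoproteins from the endoplasmic reticulum, had 12.6, 10.7 and 10.8 CPM in mock and 1.10, 1.67 and 1.80 CPM in tatcre libraries. Its relative Lman1 was called lower by a smaller amount (log2 fold change -0.70, edgeR adjusted p = 5.58e-05), and Lman2 was not called (139 and 159 CPM after TMM scaling, edgeR adjusted p = 0.131). Zdhhc2, a palmitoyltransferase, had 6.13, 7.05 and 7.25 CPM in mock and 0.552, 0.660 and 1.39 CPM in tatcre libraries, with tatcre 3 the highest. Its relatives Zdhhc1, Zdhhc15 (0.164 and 1.68 CPM after TMM scaling) and Zdhhc21 were called higher and Zdhhc17 lower. The other tested Zdhhc genes, the larger part of the family, were not called. Others were the lipase maturation factor Lmf1, the sulfhydryl oxidase Qsox2 and Jmjd8, a protein of the endoplasmic reticulum.

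Genes of signalling, the cytoskeleton and the cilium included 3 with very few counts left. Map7d3, a microtubule-binding protein gene at chrX:56794833-56822490, had 10.1, 10.5 and 8.66 CPM in mock libraries and 3, 2 and 3 counts in tatcre libraries. Rgs11, a regulator of G protein signalling, had 2.62, 1.70 and 2.98 CPM in mock libraries and 1, 4 and 0 counts in tatcre libraries. Dock6, which activates the small GTPases Rac and Cdc42, had 7.89, 3.93 and 5.43 CPM in mock and 0.509, 0.352 and 0.286 CPM in tatcre libraries. All 3 separated the groups by more than 1 CPM. Without tatcre 2 the log2 ratio of Rgs11 went from -5.06 to -6.84. The relatives Map7d1 and Map7d2 were not called (edgeR adjusted p = 0.28 and 0.973).

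The other 4 of these genes were Evi5l (a Rab GTPase-activating protein), Fscn1 (an actin bundler), Intu (a planar polarity effector needed for cilia) and Bbs4 (a subunit of the BBSome, which moves cargo in cilia), and they retained 16.8 to 22.5%. Intu varied most between tatcre libraries of these, with 1.49, 0.308 and 0.817 CPM against 4.75, 4.32 and 3.74 CPM in mock libraries.

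The nuclear and protein turnover class held 12 genes and no ratio above 7.26. Neurl3, a ubiquitin ligase gene, had 33.7, 25.4 and 26.6 CPM in mock and 7.22, 6.16 and 6.25 CPM in tatcre libraries. Hemgn, which codes for hemogen, a nuclear protein of blood cells, had 18.1, 22.1 and 25.9 CPM in mock and 3.31, 4.27 and 2.98 CPM in tatcre libraries. Erythroid markers were at 0 in every mock library and summed to at most 0.176 CPM in a tatcre library, with Hbb-bs at 0 in all. Spata24 had 20.2, 19.5 and 20.4 CPM in mock and 2.50, 3.43 and 3.23 CPM in tatcre libraries.

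Of the transcription regulators, Rxra, the retinoid X receptor that pairs with many nuclear receptors, had 5.42, 9.25 and 6.12 CPM in mock and 2, 2.02 and 0.776 CPM in tatcre libraries. Hic2, a zinc finger repressor, had 4.34, 4.92 and 3.95 CPM in mock and 0.722, 1.67 and 0.899 CPM in tatcre libraries. Pcgf1, a subunit of a Polycomb complex, had 3.33, 3.19 and 2.50 CPM in mock and 1.06, 0.792 and 0.368 CPM in tatcre libraries. Other Polycomb ring finger genes went both ways: Pcgf2 was called lower (log2 fold change -1.53, edgeR adjusted p = 0.000327), Pcgf3 higher (0.27, edgeR adjusted p = 0.0346), and Pcgf5 and Pcgf6 were not called. The remaining members were Pbx4, Zfp128, the stress-response gene Nupr1, Zcchc3 (a nucleic acid-binding protein), Zfand1 and Cand2, which acts on cullin ubiquitin ligases.

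The last 7 genes had clone names or were not protein-coding. The highest was Ppp4r1l-ps, a pseudogene, with 50.9, 47.2 and 47.8 CPM in mock and 9.59, 13.8 and 9.73 CPM in tatcre libraries. A430033K04Rik had 30.5, 25.5 and 28.5 CPM in mock and 4.37, 3.83 and 3.02 CPM in tatcre libraries. 2610318N02Rik had 22.2, 28.7 and 20.0 CPM in mock and 5.77, 5.06 and 5.43 CPM in tatcre libraries. Pseudogenes can share reads with their parent genes, so Ppp4r1l-ps, Gm14038 and Gm6960 are uncertain. The long noncoding RNA 2610035D17Rik retained 10.1%, and 2310022B05Rik retained 14.7%.

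**Figure D3:**
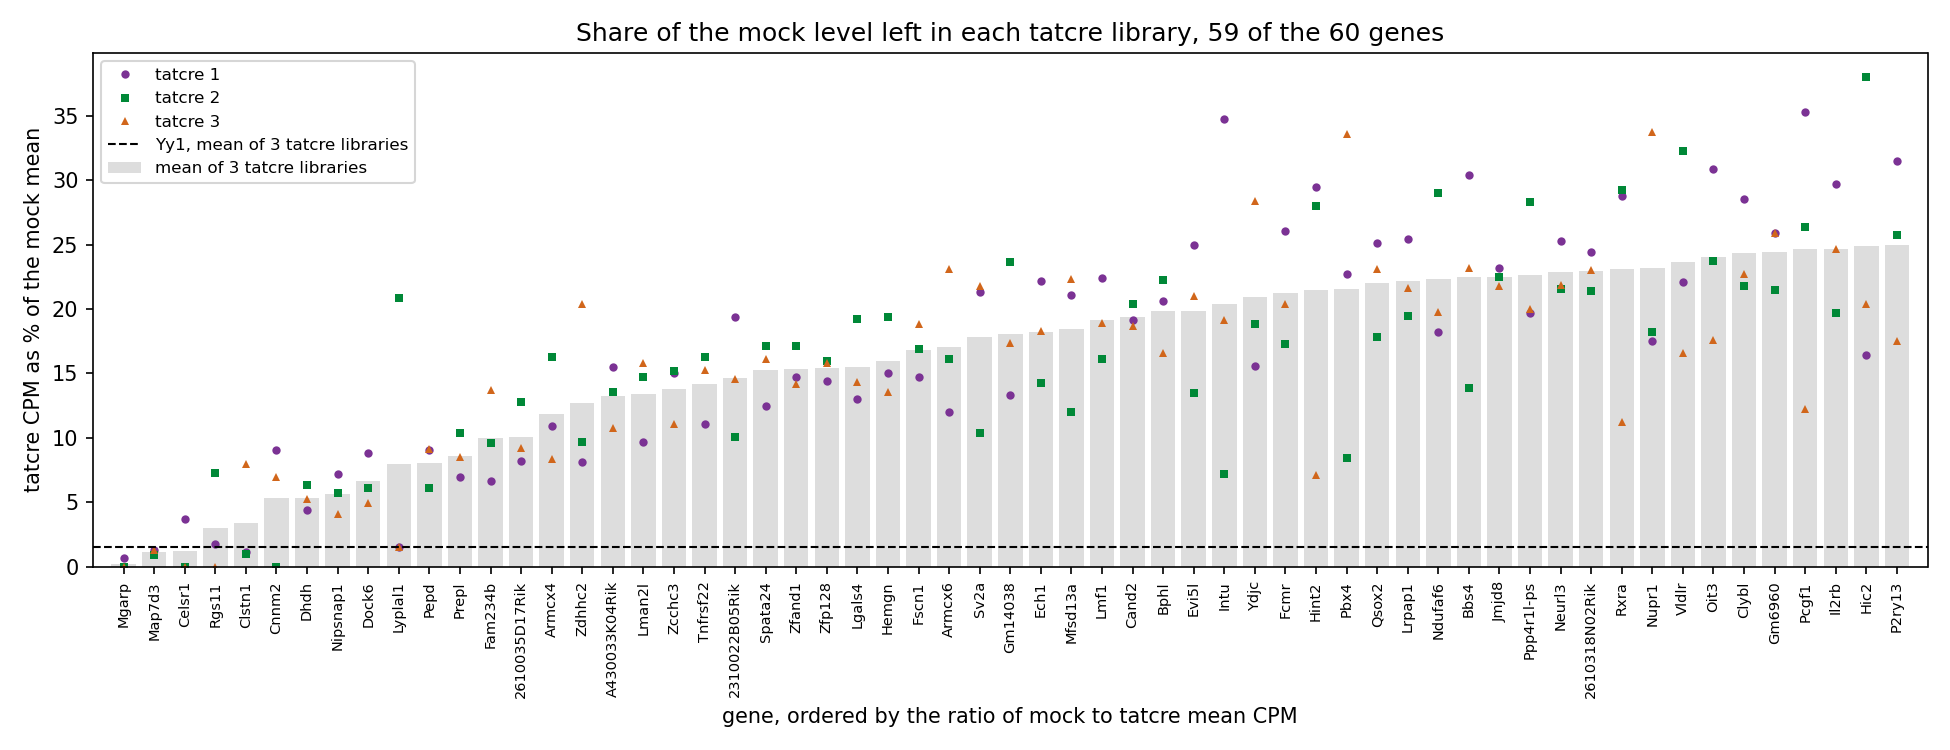
CPM in each tatcre library as a percentage of the mock mean (1 point per library), for 59 of the 60 genes in the order of the ratio of mock to tatcre mean. The spread between the 3 tatcre libraries differs from gene to gene, and in Hint2, Hic2 and Rxra 1 library lies apart from the others. In Clstn1, Lyplal1 and Rgs11, 1 library holds most of the tatcre counts.

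Across the set, the tatcre library with the most remaining Yy1 was not the one with the most remaining RNA of these genes. Yy1 was lowest in tatcre 1 (1.02 CPM) and highest in tatcre 3 (2.04 CPM). Among the 3 tatcre libraries, tatcre 1 held the highest value for 26 of the 60 genes (43.3%) and tatcre 3 for 13 (21.7%). Of all genes with a mock mean of at least 2 CPM, tatcre 1 was the highest tatcre library for 27.7% and tatcre 3 for 36.1%. In the mock group, mock 1 was highest for 30 of the 60 genes (50%) and for 39.6% of all such genes. The 60 genes varied somewhat more between mock libraries, with a median coefficient of variation of 13.8% against 10.2% for the 7257 genes in the same range of mock means. The 7257 genes were not matched to the 60 by level within this range. The part of level in the difference was not tested, and the rule also used these mock values.

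None of the 60 genes was among the most abundant transcripts of these cells. Their median mock level was 9.34 CPM against 28.7 CPM for all genes with a mock mean of at least 2 CPM, on a scale not corrected for gene length. They made up 19 of 1534 genes at 2 to 5 CPM (1.24%), 13 of 1364 at 5 to 10 CPM, 16 of 1781 at 10 to 20 CPM and 12 of 2658 at 20 to 50 CPM. The highest mock mean was 48.6 CPM; above 50 CPM only genes left out by name met the limits.

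The limits cut through a continuous range. Just inside the 25% limit were P2ry13, Hic2 and Il2rb with ratios of 4.01, 4.01 and 4.05, and just outside were 2610301B20Rik, AU022252 and P3h1 with 3.96, 3.93 and 3.90. Just inside the 2 CPM limit were Lgals4, Celsr1 and Cnnm2 with mock means of 2.28, 2.30 and 2.35 CPM. Just outside were Chic1, Slc35d3 and Zfp37 with 1.94, 1.93 and 1.77 CPM. Zfp37 had 46, 58 and 38 counts in mock and 4, 3 and 1 in tatcre libraries, and thus missed the set by its level alone.

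The 60 genes were spread over 19 chromosomes, with 8 on chromosome 7, 5 each on chromosomes 2 and 3, and 3 on X. Some lay near each other. Lgals4 and Ech1 start 7.78 kb apart, Ydjc and 2610318N02Rik 33.6 kb apart, and Hic2 lies 86.6 kb from Ydjc. Lman2l and Neurl3 are 154 kb apart, and Lmf1 and Jmjd8 250 kb. Distances between genes are between their lower coordinates on GRCm38, except for head-to-head pairs, where they are between transcription starts.

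Genes next to the 60 were examined because position was not part of the rule. The nearest tested gene on each side, with head-to-head partners, gave 117 genes outside the set. Of these 32 (27.4%) were called lower, 9 (7.69%) higher and 76 were not called, against 16.3% lower and 10.8% higher among all 15546 tested genes. Their median mean log2 CPM was 4.07, and that of all tested genes 3.83. With library totals in place of TMM scaling the split was 25 lower and 18 higher, against 12.2% and 16.8% of all tested genes. With upper-quartile factors it was 26 and 16, against 13.5% and 14.3%. Within 50 kb, a limit chosen after the data had been seen, 19 of 57 (33.3%) were lower and 1 (1.75%) higher. Further away 13 of 60 (21.7%) were lower and 8 (13.3%) higher.

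Single neighbours differed widely. Beside Cnnm2, the arsenic methyltransferase gene As3mt had 8.28 CPM in mock and 2.08 CPM in tatcre libraries after TMM scaling (log2 fold change -1.99, edgeR adjusted p = 3.8e-05). Sox12, a transcription factor gene beside Zcchc3, had 9.51 and 3.75 CPM (log2 fold change -1.34, edgeR adjusted p = 0.0007). Prob1, beside Spata24, had 5.40 and 1.83 CPM (log2 fold change -1.56, edgeR adjusted p = 0.00282). Beside P2ry13, the ADP receptor gene P2ry12 was lower (log2 fold change -1.04, edgeR adjusted p = 0.0115) and P2ry14, a receptor for UDP-glucose, was higher (2.63, edgeR adjusted p = 0.0204). Ube2l3, 5.07 kb from Ydjc, was the 1 higher gene within 50 kb (0.43, edgeR adjusted p = 0.00236).

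Some neighbours overlap the genes of the set, and no source used here gives the strand setting of the counting, so shared reads were not separated. Tmem191c, overlapping Hic2, had 0.605 and 0.0267 CPM after TMM scaling (log2 fold change -4.24, edgeR adjusted p = 0.00704). Ccdc116, overlapping Ydjc, had a log2 fold change of -1.74 (edgeR adjusted p = 0.00496). Slc3a1, Stub1 and Med12l, which overlap Prepl, Jmjd8 and P2ry13, were not called. Head-to-head starts within 1000 bases could be looked for only in the 43 genes with a promoter entry, and were found for 3. Camkmt starts 352 bases from Prepl on the other strand and had 1.32 and 0.424 CPM after TMM scaling (log2 fold change -1.63, edgeR adjusted p = 0.047). The partners of Fam234b and Armcx4 were noncoding RNAs that were not among the tested genes.

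**Figure D4:**
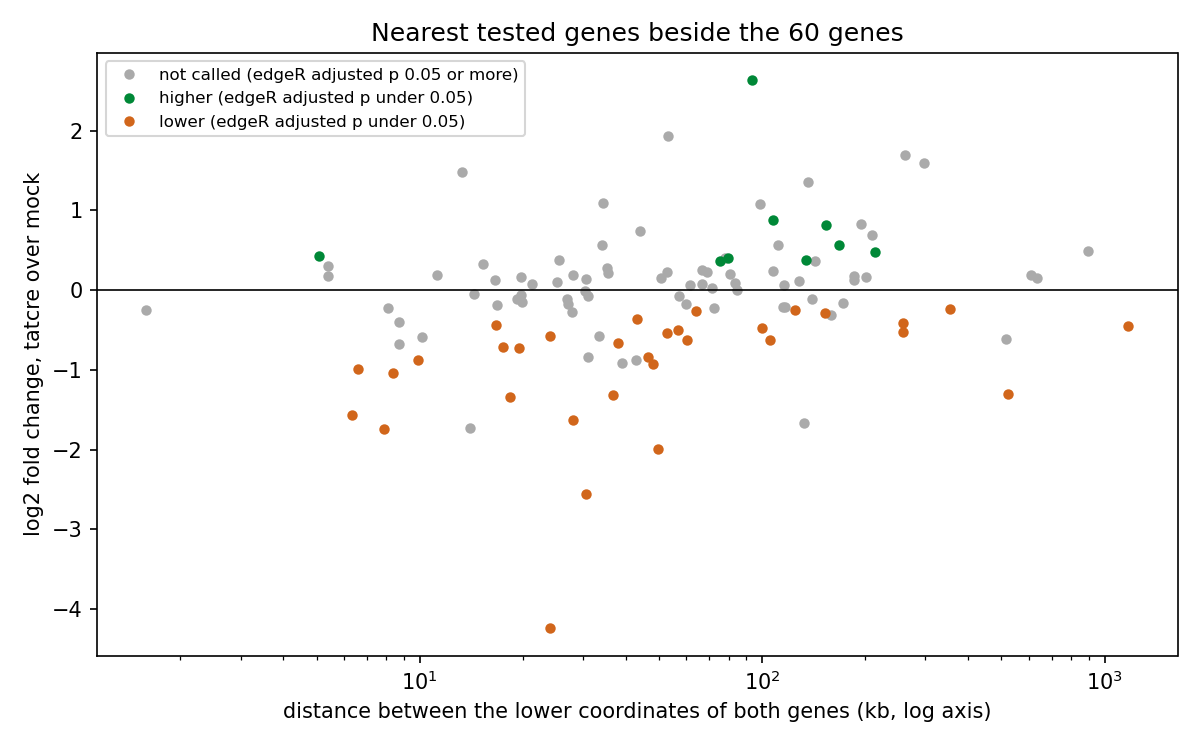
Log2 fold change, tatcre over mock, of the 117 nearest tested genes outside the set against their distance from a gene of the set (kb, log axis), with called and uncalled genes marked. Of the 57 within 50 kb, 19 were called lower and 1 higher.

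Genes related by name were called at close to the shares of all tested genes. Of 129 tested genes that share a symbol stem with a gene of the set or belong to the prolyl oligopeptidase or armadillo lists, 22 (17.1%) were called lower and 13 (10.1%) higher. Nipsnap2 was lower (20.5 and 11.1 CPM after TMM scaling, log2 fold change -0.89, edgeR adjusted p = 0.000539), as was Hint3 (log2 fold change -1.09, edgeR adjusted p = 0.00203). Cand1, which acts on the same ligases as Cand2, was not called at 156 and 177 CPM (edgeR adjusted p = 0.113). Celsr2, at 2.66 and 1.57 CPM, was not called either (edgeR adjusted p = 0.128).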

How the data were processed

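RNA-seq of 3 mock and 3 tatcre libraries was used. The deposited files hold raw counts per gene, which the authors made with Trimmomatic, TopHat2, SAMtools and HTSeq on build mm10, per the submitters' processing notes; no source used here gives versions, annotation or strand setting, and libraries came from a stranded kit, per the labels' protocols. Of 48795 gene IDs 48349 matched a symbol. CPM divides counts by the library total. Genes kept by filterByExpr (minimum count 10, minimum total 15), 15546, were compared with edgeR 4.0.16 (R 4.3.3; TMM, quasi-likelihood test, Benjamini-Hochberg, threshold 0.05); the biological coefficient of variation was 0.129. The test was tested on simulated data. DESeq2 1.42.0, other scalings, no filter, a replicate block and leaving out each library were alternatives. Same-numbered libraries did not all deviate together (correlations of deviations 0.06, -0.03 and 0.23), and the labels do not say that a number marks a mouse, so they were not paired. No replicates agreed within sampling noise (smallest chi-square per degree of freedom 7.5). Intervals are exact binomial (Clopper-Pearson). Coordinates and sequences are RefSeq GRCm38.p6. The ChIP peaks were not used here, since peaks lie past the chromosome ends of this build. The genes, gene lists, motifs and tests were chosen with earlier results of these data known. Any gene of the set could be named; values in every library are given for the 12 with the largest ratio, the 12 with the highest mock mean, those at a limit or at 0 in a tatcre library, and examples of each class. Others are named where called, or as relatives that were not. The name and own values of 1 gene of the set are not reported here and not drawn, but it is included in the counts, shares and medians.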

Additional observations from a re-analysis of the deposited data

How the results depend on the processing

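The rule gave 67 genes with TMM- or RLE-scaled CPM and 63 with upper-quartile scaling, all 60 included each time. With the ratio limit at 3 in place of 4 the rule gave 129 genes, and at 5 it gave 37. Leaving out 1 library gave 56 to 64 genes, but only 52 to 58 of the 60 were among them, fewest without tatcre 3. Of 538 recomputed log2 ratios of the 60 genes, 534 moved by less than the spread between replicates and 0 reversed. By the rule no tatcre library reached a mock library, so leaving out 1 library could not reverse a ratio. Nothing is read from that 0. Mgarp and Celsr1 had no ratio without tatcre 1, since no tatcre counts were left. Besides the library-driven values of Rgs11, Clstn1 and Lyplal1, that of Jmjd8 moved beyond the spread, to -2.26 with TMM. Library totals moved the median of all log2 fold changes from 0.02 to 0.13 and raised the higher calls from 1679 to 2614. Leaving out 1 library gave 998 to 1681 higher calls, lowest without mock 2 and tatcre 1, and 1960 to 2391 lower calls. Neighbours called higher were 16 with upper-quartile factors and 18 with library totals, against 9; neighbours called lower were 22 to 31 with 1 library left out. Within 50 kb, 2 were higher with RLE factors or DESeq2, 3 with upper-quartile factors, 4 with library totals and 1 to 2 with 1 library left out; 15 to 22 were lower over all alternatives. Relatives by name called lower were 13 to 21 with 1 library left out (13 without mock 2, 14 without tatcre 1), and those called higher 8 to 14 (8 without mock 2). With the replicate number as a block, 2108 genes were lower and 1313 higher, relatives called higher were 8, and neighbours 25 lower and 7 higher. In the first 50 bases GCCAT was in 41.9% of promoters (15.5% of tested genes outside the set, 13% of all other genes), GGGCGG in 20.9% (18 and 9.43%) and TATAAA in 0% (0.773 and 1.5%). The cause of these shifts was not tested. Depth limits the ratios of genes with few tatcre counts, Mgarp, Celsr1, Rgs11 and Map7d3 above all, and peaks, gene length and cell numbers were not part of the comparison.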
